A study of Arabidopsis thaliana with 12 samples.

Results

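miR399 and miR827 are the microRNAs (miRNAs) that Arabidopsis thaliana makes in large amounts when phosphate is scarce. They were chosen by family number: every listed entry of miR399 or miR827, of either strand. The rule found 6 of the 240 entries in the 12 libraries. Of these, 5 are miR399 entries, holding 6 mature names, and 1 is miR827. miR399b and miR399c-3p are listed as 1 entry, so their loci (AT1G63005 and AT5G62162) could not be told apart. The other entries are miR399a (AT1G29265), miR399d (AT2G34202), miR399f (AT2G34208), miR399c-5p, which is the opposite strand of the miR399c precursor, and miR827, listed as ath-miR827 (AT3G59884).

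In the known phosphate pathway, the transcription factor PHR1 switches on the precursors of both miRNAs when phosphate runs low. miR399 then lowers PHO2 (AT2G33770), a ubiquitin-conjugating enzyme, and miR827 lowers NLA (AT1G02860), a ubiquitin ligase. Both enzymes otherwise lower the amount of phosphate transporters, so the miRNAs raise uptake and root-to-shoot transport. miR399 is known to travel from shoot to root in the phloem.

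The libraries form 6 groups of 2, all in ecotype Col-0. Of the 12, 8 hold small RNA bound to GFP-tagged AGO1 (AT1G48410), the protein that carries most plant miRNAs, pulled down from roots of plants aged 9 days. The tagged protein was made from the ACL5 promoter (metaxylem and procambium) or the EN7 promoter (endodermis), each in the ktn1-20 mutant and in WT. The groups are called ACL5 ktn1, ACL5 WT, EN7 ktn1 and EN7 WT. The other 4 hold total small RNA of whole seedlings aged 14 days without a transgene, from ktn1-20 (seedling ktn1) and WT (seedling WT). The gene KTN1 (AT1G80350), of which ktn1-20 is an allele, makes the part of katanin that cuts microtubules. Plants grew on diluted MS medium, and the labels name no phosphate treatment. The labels do not say how many transgenic lines or plants stand behind a library, nor that replicates came from separate cultures, so p-values measure only the spread between these libraries. The identity of the cell layers rests on the promoters, since a miRNA table holds no marker transcripts, and no immunoprecipitation without GFP was analysed here.

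Values are reads per 1000000 (RPM) of a denominator of 5804745 to 13004041 reads in the AGO1 libraries and 13769316 to 44332443 reads in the seedling libraries. Listed miRNAs took 25.1% to 59.5% of that denominator in AGO1 libraries and 1.68% to 2.45% in seedlings. Along the first principal component of the 86 tested AGO1-bound entries (56.5% of the variance), 2 libraries stood apart from their layer. ACL5 ktn1 replicate 2 lay at 1.11, against -10.1 to -8.50 for the other ACL5 libraries. EN7 WT replicate 1 lay at -6.37, against 5.27 to 15.7 for the other EN7 libraries. Values without these libraries are given beside the main tests that use them.

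The 5 miR399 entries were very unequal. miR399b/miR399c-3p held 97.8% to 99.3% of all miR399 reads in the AGO1 libraries and 97.2% to 98.2% in the seedling libraries. It stood between rank 12 and rank 31 of the listed miRNAs in the AGO1 libraries, and between rank 21 and rank 26 in seedlings. The miR399 sum is thus close to this entry alone. miR827 ranged more widely, between rank 20 and rank 86 in AGO1 libraries. Within a library, miR399b/miR399c-3p exceeded miR827 by 1.13-fold to 158-fold in AGO1 libraries and by 5.84-fold to 7.85-fold in seedlings, so it was the more abundant of the pair in all 12 libraries.

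**Figure D1:**
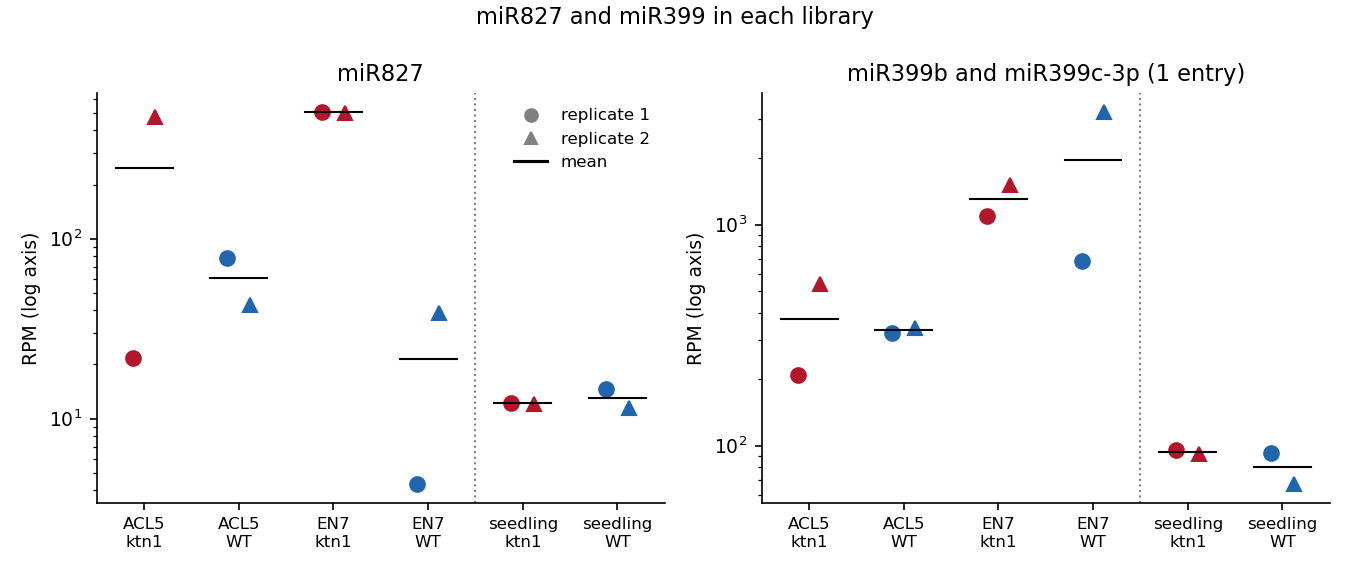
RPM of miR827 (left) and of the entry miR399b/miR399c-3p (right) in every library, on log axes, with a bar at the mean of each group of 2. miR827 reached 475 to 505 RPM in both EN7 ktn1 libraries and in ACL5 ktn1 replicate 2, and at most 77.6 RPM in the other AGO1 libraries, while miR399b/miR399c-3p was lower in every ACL5 library than in any EN7 library.

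In the endodermis lines, AGO1-bound miR827 was higher in both ktn1 libraries than in either WT library. It had 505 and 502 RPM in EN7 ktn1, against 4.33 and 38.8 RPM in EN7 WT. The groups did not overlap, and the ktn1 replicates were almost equal while the WT replicates differed by 2.90 on the log2(RPM + 1) scale. The lowest value rests on 34 reads, with an exact 95% binomial interval that reaches up to 6.04 RPM (counting error only). The ratio of single libraries ran from 12.9 to 117, and the ratio of the means was 23.4 (503 ± 2.56 RPM against 21.5 ± 24.3 RPM, SD, n = 2 each).

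This difference did not pass the test across all miRNAs. On the log2(RPM + 1) scale it was 5.12 (SE 1.51, 95% interval 1.53 to 8.70, unadjusted p = 0.0120, adjusted p = 0.129, limma with Benjamini-Hochberg adjustment over 86 entries). It was the largest positive change of the 86, whose median was -0.47, and lay 5.58 above that median. In this comparison 6.98% of entries passed an adjusted p of 0.05, and 11.6% had both ktn1 libraries above both WT libraries. Leaving out EN7 WT replicate 1 gave 3.67, and leaving out EN7 WT replicate 2 gave 6.57, each with 1 EN7 WT library left. The second value rests on EN7 WT replicate 1, a library that stands apart from its layer and has 34 reads of miR827. Without EN7 WT replicate 1 and ACL5 ktn1 replicate 2 together, a setting chosen after the values were seen, the EN7 difference was again 3.67. The replicate spread of miR827 then came only from ACL5 WT and EN7 ktn1, with 1 library left in EN7 WT. That setting is therefore no stronger evidence for the EN7 difference. Over the alternatives that kept 2 libraries in every group, the adjusted p of this difference ran from 0.0541 to 0.175 (limma). In bulk immunoprecipitates, fewer loaded cells and less miRNA per cell cannot be told apart.

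The share taken by other miRNAs also moved between these groups. miR165 and miR166 together took 34.4% and 34.7% of the denominator in EN7 ktn1, against 12.4% and 12.2% in EN7 WT. With libraries rescaled to equal miRNA sums without miR165 and miR166, the miR827 change was 5.13 (adjusted p = 0.0872). Rescaled to equal sums of all miRNAs it was 4.40 (adjusted p = 0.108).

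In the vascular lines the ktn1 replicates disagreed. miR827 had 21.7 and 475 RPM in ACL5 ktn1, against 77.6 and 43.1 RPM in ACL5 WT. One ktn1 library lay below both WT libraries and the other above both, so the groups overlapped. The log2 difference was 0.82 (SE 1.51, 95% interval -2.77 to 4.41, adjusted p = 0.856, limma); 4.65% of entries passed here. The gap of 4.39 on the log2 scale between the ACL5 ktn1 replicates was the second largest of the 86 entries, whose median gap was 0.88. Leaving out replicate 2, the library that stands apart, turned the difference to -1.38 (adjusted p = 0.762), and leaving out replicate 1 gave 3.02 (adjusted p = 0.386). Leaving out ACL5 WT replicate 1 gave 1.24 and leaving out ACL5 WT replicate 2 gave 0.40.

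An interaction term compared the ktn1 change of miR827 between layers. The ACL5 change less the EN7 change was -4.30 (SE 2.14, 95% interval -9.37 to 0.78, unadjusted p = 0.0851, adjusted p = 0.665, limma), where 2.33% of entries passed. Without the 2 libraries that stand apart it was -5.04, with 1 library left in each of ACL5 ktn1 and EN7 WT. Neither of those groups then had a spread of its own. Leaving out single libraries gave -6.49 without ACL5 ktn1 replicate 2 and -2.10 without ACL5 ktn1 replicate 1. Averaged over both layers, a comparison added after the values were seen, miR827 was higher in ktn1 by 2.97 (SE 1.07, adjusted p = 0.150), and 10.5% of entries passed. Without EN7 WT replicate 2 that average was 3.69, with EN7 WT replicate 1, which stands apart, as the only EN7 WT library left. Without ACL5 ktn1 replicate 2 the average was 1.87, and without both libraries that stand apart it was 1.14.

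**Figure D2:**
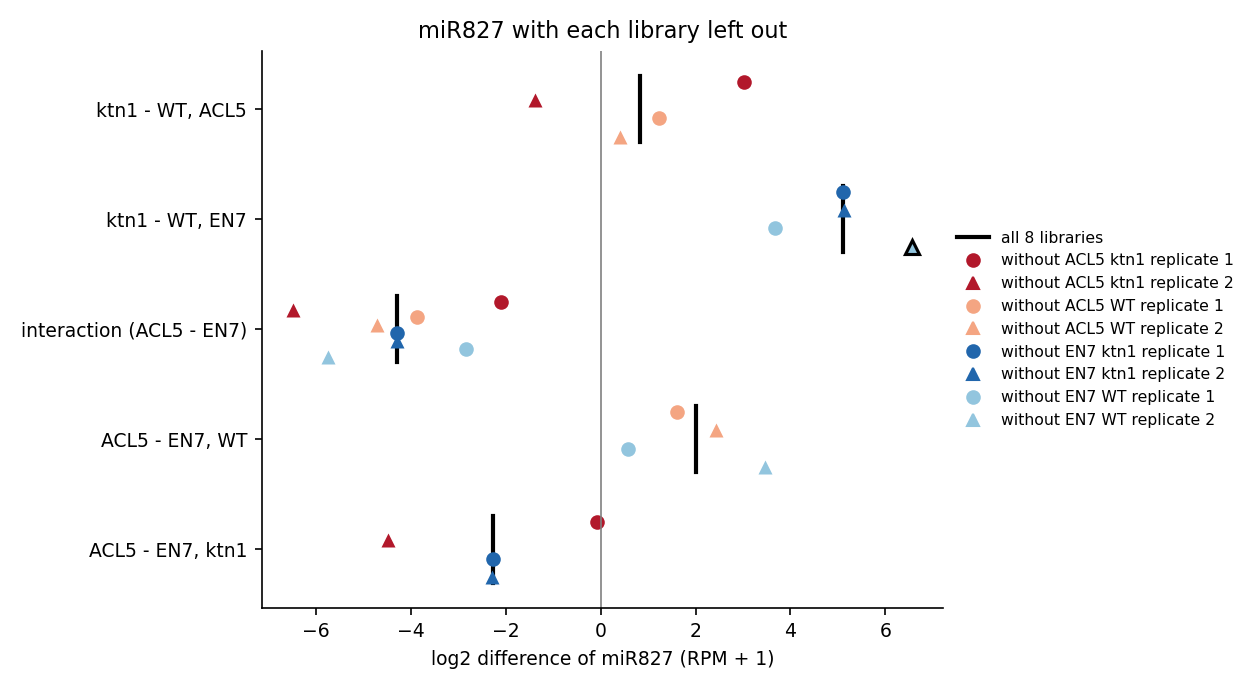
Log2 difference of miR827 in the 5 comparisons of AGO1 libraries, with all 8 libraries (black bars) and with each library of the compared groups left out in turn (symbols); a black outline marks an adjusted p under 0.05. The ktn1 difference in ACL5 ran from -1.38 to 3.02, on both sides of 0, while the ktn1 difference in EN7 stayed between 3.67 and 6.57 and carried the only outlined symbol. That symbol is the fit without EN7 WT replicate 2, in which EN7 WT replicate 1 is the only EN7 WT library, so its outline is no separate support.

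The ktn1 and WT libraries overlapped for miR399 in both layers. miR399b/miR399c-3p, which directs cleavage of PHO2 transcripts, had 208 and 536 RPM in ACL5 ktn1, against 324 and 340 RPM in ACL5 WT. The ktn1 libraries lay on either side of the WT libraries. In the endodermis it had 1099 and 1513 RPM in EN7 ktn1, against 683 and 3229 RPM in EN7 WT. Here the WT libraries lay on either side of the ktn1 libraries, with a gap of 2.24 on the log2(RPM + 1) scale between the WT replicates.

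For the summed miR399 entries, the log2 difference between ktn1 and WT was 0.0077 in ACL5 (SE 0.90, 95% interval -2.01 to 2.03, adjusted p = 0.993, limma over 56 family sums). In EN7 it was -0.20 (SE 0.90, 95% interval -2.23 to 1.82, adjusted p = 0.924). Of the family sums, 3.57% passed in each of the 2 comparisons. The interaction was 0.21 (SE 1.27, 95% interval -2.65 to 3.07, adjusted p = 0.944), and 1.79% passed. Without the 2 libraries that stand apart it was 0.64 (adjusted p = 0.878). The sign in ACL5 turned with leaving out ACL5 ktn1 replicate 2 (-0.68) or ACL5 WT replicate 1 (-0.020), and leaving out ACL5 ktn1 replicate 1 gave 0.69. In EN7 it turned with leaving out EN7 WT replicate 2 (0.91) or EN7 ktn1 replicate 1 (0.017), and leaving out EN7 WT replicate 1 gave -1.32.

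Between layers, the RPM of miR399 was lower in the vascular than in the endodermal immunoprecipitates. In ktn1 roots miR399b/miR399c-3p had 208 and 536 RPM in ACL5, against 1099 and 1513 RPM in EN7. In WT roots it had 324 and 340 RPM in ACL5, against 683 and 3229 RPM in EN7. All 4 ACL5 libraries were below all 4 EN7 libraries, though the nearest pair, ACL5 ktn1 replicate 2 and EN7 WT replicate 1, are the libraries that stand apart from their layers. Single ACL5 libraries were 2.05-fold to 7.27-fold lower than single EN7 libraries in ktn1, and 2.01-fold to 9.95-fold lower in WT.

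Within each genotype the layer difference of the miR399 sum did not pass the test. ACL5 minus EN7 was -1.94 in ktn1 (SE 0.90, unadjusted p = 0.0582, adjusted p = 0.191, limma), where 10.7% of family sums passed and 21.4% had both ACL5 libraries below both EN7 libraries. It was -2.15 in WT (SE 0.90, unadjusted p = 0.0394, adjusted p = 0.280), where 3.57% passed and 32.1% had both ACL5 libraries lower. Averaged over both genotypes, a comparison added after the values were seen, it was -2.05 (SE 0.63, 95% interval -3.48 to -0.62, adjusted p = 0.0449), while the median family sum was higher in ACL5, by 0.39. In that average 7.14% of family sums passed as lower in ACL5, and 8.93% had all ACL5 libraries below all EN7 libraries. The call was lost in 9 of 18 alternatives, with adjusted p-values between 0.0505 and 0.169 in those 9. Without the 2 libraries that stand apart the layer difference was -2.62 in ktn1 and -3.26 in WT, with 1 library left in a group of each. These 2 libraries lie toward the other layer in these same data, so leaving them out tends to widen layer differences. The larger values are therefore no separate support. Leaving out EN7 WT replicate 1 alone gave -3.26 in WT, and leaving out EN7 WT replicate 2 gave -1.04. Listed miRNAs took 59.5% and 53.6% of the denominator in EN7 ktn1, against 32.5% and 32.1% in ACL5 ktn1. With equal miRNA sums the layer difference was -1.135 in ktn1 (adjusted p = 0.289, limma) and -1.835 in WT. With equal sums without miR165 and miR166 it was -2.44 in ktn1 and -2.23 in WT. With an equal median it was -2.51 in ktn1 and -2.44 in WT.

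miR827 did not follow the layer in this way. In ktn1 roots it had 21.7 and 475 RPM in ACL5, against 505 and 502 RPM in EN7, a log2 difference of -2.28 (SE 1.51, adjusted p = 0.322, limma). In WT roots it had 77.6 and 43.1 RPM in ACL5, against 4.33 and 38.8 RPM in EN7, a log2 difference of 2.02 (SE 1.51, adjusted p = 0.407). The groups did not overlap in either genotype, and the layers were ordered oppositely in them. In ktn1, 16.3% of entries lay lower in ACL5 without overlap, and 16.3% passed the test. In WT, 30.2% lay higher in ACL5 without overlap, and 3.49% passed. The ktn1 difference became -0.083 without ACL5 ktn1 replicate 1 and -4.48 without ACL5 ktn1 replicate 2. Without EN7 WT replicate 1 the WT difference was 0.57, and without EN7 WT replicate 2 it was 3.47. Ordered by mean, miR827 in the AGO1 libraries ran from EN7 ktn1 (503 RPM) through ACL5 ktn1 (248 RPM) and ACL5 WT (60.4 RPM) to EN7 WT (21.5 RPM). Of the neighbours in that order, ACL5 ktn1 and ACL5 WT overlapped; the others did not, but by narrow gaps, between 502 and 475 RPM for EN7 ktn1 and ACL5 ktn1, and between 43.1 and 38.8 RPM for ACL5 WT and EN7 WT. For miR399b/miR399c-3p the order was EN7 WT (1956 RPM), EN7 ktn1 (1306 RPM), ACL5 ktn1 (372 RPM) and ACL5 WT (332 RPM), and only EN7 ktn1 and ACL5 ktn1 did not overlap among neighbours.

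**Figure D3:**
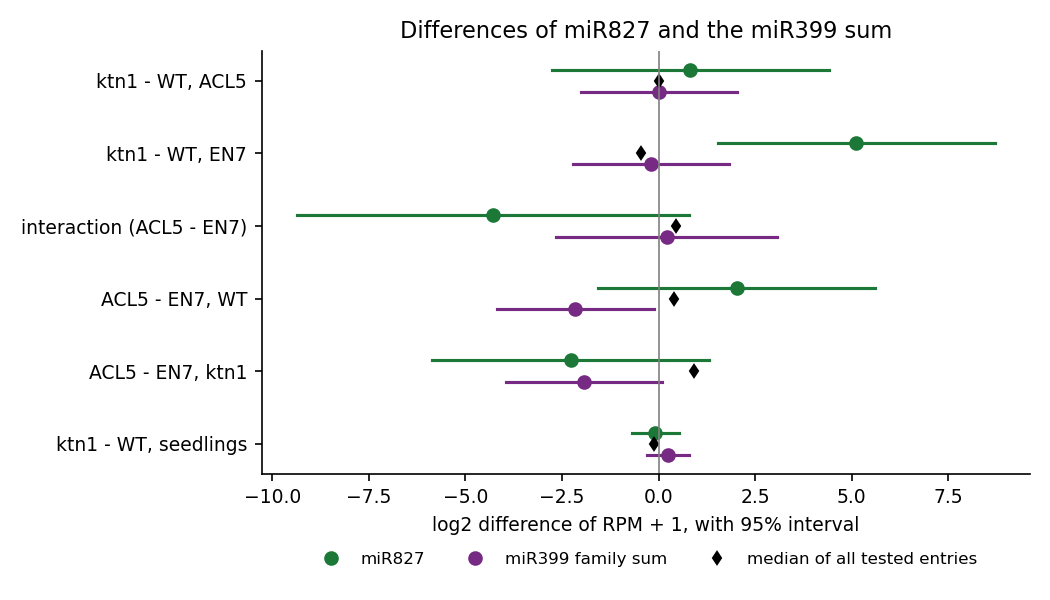
Log2 differences of miR827 (green) and of the miR399 family sum (purple) in the 6 comparisons, with 95% intervals of the limma fits and the median of all tested entries (black diamonds). The miR827 interval of the EN7 comparison ran from 1.53 to 8.70, and the miR399 intervals of both ktn1 comparisons in roots spanned 0.

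In whole seedlings neither miRNA passed the test between ktn1 and WT. miR827 had 12.2 and 12.1 RPM in ktn1 seedlings, against 14.6 and 11.4 RPM in WT seedlings, and the ktn1 values lay between the WT values. Its log2 difference was -0.083 (SE 0.31, 95% interval -0.70 to 0.53, adjusted p = 0.929, limma over 62 entries), and 1.61% of entries passed. miR399b/miR399c-3p had 95.6 and 92.1 RPM in ktn1 seedlings, against 92.4 and 66.9 RPM in WT seedlings. The miR399 sum differed by 0.25 (SE 0.27, 95% interval -0.30 to 0.79, adjusted p = 0.637, limma over 39 family sums), where 0.0% passed (0 of 39, with 8, or 20.5%, at an unadjusted p under 0.05). As a share of listed miRNA reads, the miR399 sum was 0.449% and 0.563% in ktn1 seedlings, against 0.388% and 0.324% in WT seedlings. The groups did not overlap, and 28.2% of all 39 tested family sums were higher in ktn1 without overlap on this scale. Rescaled to equal miRNA sums, the log2 difference of the miR399 sum was 0.50 (unadjusted p = 0.0121, adjusted p = 0.118, limma). Without rescaling, the seedling fits had 124 degrees of freedom for entries and 78 for family sums, from 4 libraries. Their errors thus come almost wholly from the trend across miRNAs. The seedling p-values are therefore no measure of the replicate spread of miR399 or miR827 alone. Tissue, age and assay separate the seedling from the AGO1 libraries, so no test was run between them.

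The less abundant miR399 entries stayed below the filter of the tests (10 RPM in at least 2 libraries of a fit), and their values are given as a description. miR399a, with 1.21 to 12.8 RPM in AGO1 libraries, was the one closest to the filter. It had 4.91 RPM or less in the 4 ACL5 libraries, against 5.69 RPM or more in the 4 EN7 libraries, as did 5.08% of the 197 entries compared without a filter, in which all ACL5 libraries lay lower. Without the filter, its layer difference over both genotypes was -1.61 and did not pass (SE 0.49, adjusted p = 0.0683, limma). miR399f had 0.879 to 9.22 RPM, and its ACL5 and EN7 libraries overlapped. The lowest AGO1 values rest on 7 reads for miR399a and 8 reads for miR399f. In seedlings miR399a had 1.44 and 1.89 RPM in ktn1, against 1.89 and 1.28 RPM in WT, and the groups overlapped. There miR399f had 0.158 and 0.436 RPM in ktn1, against 0.581 and 0.0640 RPM in WT, which also overlapped.

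miR399d was the 1 member whose ktn1 libraries lay lower in every set. It had 0.550 and 1.92 RPM in ACL5 ktn1, against 4.32 and 2.07 RPM in ACL5 WT. It had 5.77 and 2.06 RPM in EN7 ktn1, against 6.11 and 8.64 RPM in EN7 WT. In seedlings it had 0 and 0.0726 RPM in ktn1, against 0.218 and 0.320 RPM in WT. The ktn1 libraries were below the WT libraries in all 3 sets, as in 4.44% of the 180 entries compared without a filter. Set by set, 22.3% of entries were lower without overlap in ACL5, 21.8% in EN7 and 28.3% in seedlings. The seedling values are 0 and 1 reads in ktn1 and 3 and 5 reads in WT, at or near the floor of 3 reads, and that floor is 0.0677 RPM in the ktn1 library with 0 reads. Without the filter, the adjusted p-values were 0.532 in ACL5, 0.729 in EN7 and 0.231 in seedlings (limma).

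The opposite strand, miR399c-5p, was listed in the seedling files but not in the AGO1 files. It had 0.180 and 0.290 RPM in ktn1 seedlings, against 0 and 0.128 RPM in WT seedlings. These are 8 and 4 reads in ktn1 and 0 and 2 reads in WT, so only the ktn1 libraries passed 3 reads. The 8 reads come from ktn1 replicate 1, with 44332443 denominator reads, against 13769316 to 15634840 in the other seedling libraries. The floor of 3 reads is 0.218 RPM in WT replicate 1, the library with 0 reads. The 0.180 RPM of ktn1 replicate 1 lies below that floor.

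**Figure D4:**
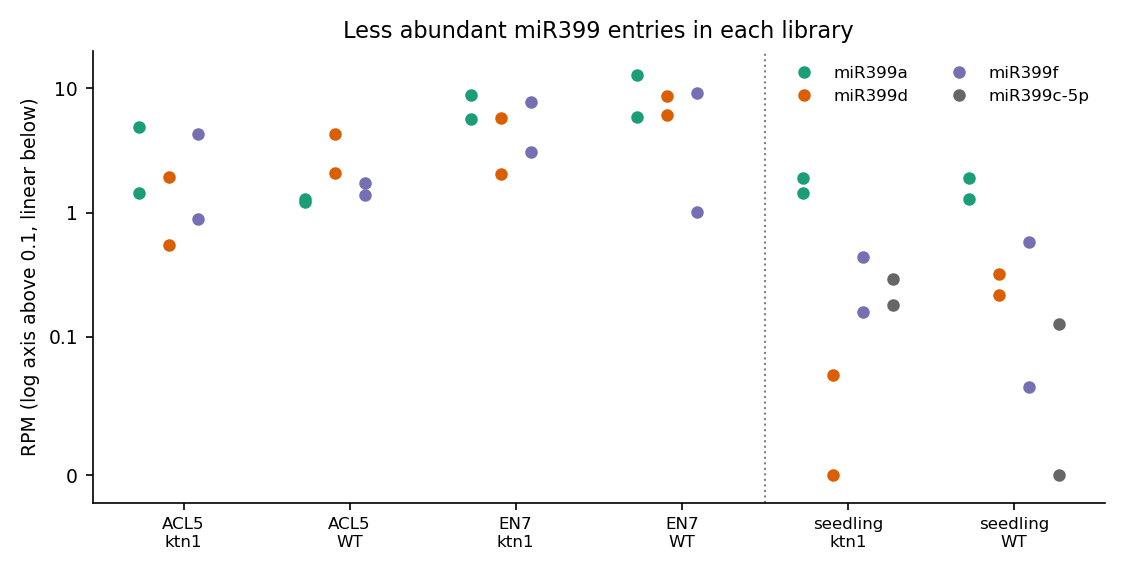
RPM of miR399a, miR399d, miR399f and miR399c-5p in every library where the entry was listed, on an axis that is logarithmic above 0.1 RPM and linear below. All values lay at or below 12.8 RPM, and miR399d was lower in the ktn1 than in the WT libraries of each set.

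Other miRNAs known to respond to phosphate were followed as 2 lists. miR778 and miR2111 rise under phosphate starvation in Arabidopsis; miR2111 is the only one of the pair that was listed, and its 3 entries reached at most 2.30 RPM in AGO1 libraries and 0.436 RPM in seedlings, so none could be tested. miR169, miR395 and miR398 are known to fall under phosphate starvation. Of their 10 entries in the AGO1 libraries 5 were tested, and 0 passed in either ktn1 comparison of roots. Their median log2 change was 1.37 in ACL5 and 0.45 in EN7, against -0.0019 and -0.47 over all 86. Both list medians are the value of a single entry, miR169b-3p. It had 0.891 to 3.23 RPM in the EN7 libraries and passed the filter only through ACL5 libraries. The medians are therefore no support for a shift of the list. The most abundant of the 5 was miR398b-3p/miR398c-3p, which targets copper proteins. It had 21549 and 25094 RPM in ACL5 ktn1, against 2313 and 4123 RPM in ACL5 WT (adjusted p = 0.173, limma). It had 6305 and 7945 RPM in EN7 ktn1, against 376 and 3316 RPM in EN7 WT (adjusted p = 0.177). Both differences were without overlap. Of all 86 tested entries, 24.4% were higher without overlap in ACL5 ktn1 and 11.6% in EN7 ktn1. The EN7 difference, 2.66 on the log2 scale, was 4.23 without EN7 WT replicate 2 and 1.09 without EN7 WT replicate 1. Without the 2 libraries that stand apart the ACL5 difference was 2.80, with 1 ACL5 ktn1 library left. Averaged over both layers it was higher in ktn1 by 2.79 (SE 0.66, adjusted p = 0.0443), with all 4 ktn1 libraries above all 4 WT libraries. That call was lost in 9 of 18 alternatives. Without the 2 libraries that stand apart the average was 1.95, with 1 library left in each of ACL5 ktn1 and EN7 WT. With all 8 libraries, miR398b-3p/miR398c-3p was the 1 entry of the 5 that passed in the average over both layers. Beside it, 3.49% of all entries passed as higher and 4.65% were higher without overlap.

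Between layers in ktn1, 2 of the 5 tested entries passed, both higher in ACL5. Beside them, 12.8% of all entries passed as higher. miR395b/miR395c/miR395f, which targets sulfate assimilation genes, had 4665 and 2012 RPM in ACL5 ktn1, against 481 and 435 RPM in EN7 ktn1 (log2 difference 2.74, SE 0.56, adjusted p = 0.0171). miR169b-3p, from the precursor of a regulator of NF-YA factors, had 17.8 and 23.9 RPM in ACL5 ktn1, against 3.23 and 1.77 RPM in EN7 ktn1 (log2 difference 2.66, SE 0.62, adjusted p = 0.0291). Only ACL5 libraries brought miR169b-3p past the filter of 10 RPM. It was thus tested only through the layer where it is higher, and its call is no separate support. Leaving out single libraries raised the adjusted p to between 0.0851 and 0.164 for miR169b-3p, and above 0.05 for miR395b/miR395c/miR395f without ACL5 ktn1 replicate 1 (0.0997), EN7 ktn1 replicate 1 (0.0759) or EN7 ktn1 replicate 2 (0.130). The miR169b-3p call was also lost with a pseudocount of 0.1 (adjusted p = 0.0566) and without the filter (adjusted p = 0.0524). Without the 2 libraries that stand apart the differences were 3.35 for miR395b/miR395c/miR395f and 2.46 for miR169b-3p, with 1 ACL5 ktn1 library left. The libraries left out lie toward the other layer, so this setting is no separate support. Averaged over both genotypes 3 of the 5 passed, miR169b-3p among them, all higher in ACL5, beside 18.6% of all entries. In WT 0 of the 5 passed, with a lowest adjusted p of 0.130, and in seedlings 0 of 5 tested passed, with a lowest adjusted p of 0.824.

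The entries whose pattern was most like each member were found by the root mean square difference of log2(RPM + 1), each entry centred on its own mean, over the 8 AGO1 libraries. For miR399b/miR399c-3p they were miR822-5p (0.54), miR842 (0.61) and miR167a-5p/miR167b (0.62), against a median of 1.76 over all entries and a spread of 1.22 for miR399b/miR399c-3p itself. miR822-5p had 17.7 and 52.7 RPM in ACL5 ktn1 and 40.8 and 30.3 RPM in ACL5 WT. In EN7 it had 153 and 102 RPM in ktn1 and 100 and 143 RPM in WT. For miR827 no entry was as close: miR5996 (1.52), miR398a-3p (1.68) and miR167c-5p (1.74) came nearest, with a median of 2.53 over all entries and a spread of 2.27 for miR827 itself. These are descriptions over 8 libraries, and the entries of a library share its denominator and depth.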

How the data were processed

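Small RNA was sequenced from 8 AGO1 immunoprecipitates and 4 total RNA samples, and per the labels' protocols the NEBNext kit was used for library construction. The authors deposited RPM values for each mature miRNA, as judged from the values. Per the submitters' processing notes, cutadapt and Bowtie were used with TAIR10; the miRNA annotation, length filter and denominator are not given in the sources used here. Within a file the lowest nonzero value divided every other without remainder (tolerance 0.01), for 100% of values; it was read as the worth of 1 read, and the denominator is 1000000 over it. Because under 100 low values per file support this, no count-based test was run, and the planned count-based alternatives were left out. Floors of 3 reads and exact 95% binomial intervals reflect counting error alone: PCR copies carry no molecular identifiers.

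Entries missing from a file were taken as 0. Entries reaching 10 RPM in 2 or more libraries of a fit were tested on log2(RPM + 1) with limma 3.58.1 (R 4.3.3; lmFit, eBayes with trend), two-sided, with Benjamini-Hochberg adjustment over all entries or family sums tested and a threshold of 0.05. The 8 AGO1 libraries were fitted together and the 4 seedling libraries apart. The fit was tried on simulated data with equal, independent spread for all entries and groups. Replicate spread differed between entries and groups in the real libraries, so the simulation is no check of the p-values under that spread. A pseudocount of 1 understates changes near 1 RPM. A single value of 2 libraries against 2 cannot go below an exact permutation p of 0.333, so no such test is given. The named miRNAs were all members, the phosphate lists and the 3 entries nearest to each member. Members, lists and tests were chosen with earlier results of these data known. Python 3.11.15, NumPy 2.4.6, SciPy 1.17.1, pandas 2.3.3 and matplotlib 3.10.9 were used. Locus tags come from the RefSeq gene table of TAIR10.1.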

Additional observations from a re-analysis of the deposited data

How the results depend on the processing

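With 2 libraries per group, single libraries moved most results. Leaving out each library in turn, miR827 ranged from -1.38 to 3.02 for ktn1 in ACL5, 3.67 to 6.57 in EN7, -6.49 to -2.10 for the interaction, 0.57 to 3.47 between layers in WT, -4.48 to -0.083 between layers in ktn1, -0.25 to 0.079 in seedlings and 1.87 to 4.07 for ktn1 over both layers (log2). The miR399 sum ranged from -0.68 to 0.69 in ACL5, -1.32 to 0.91 in EN7, -0.90 to 1.33 for the interaction, -3.26 to -1.04 between layers in WT, -2.62 to -1.25 in ktn1, -2.60 to -1.49 over both genotypes and 0.015 to 0.48 in seedlings.

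Without ACL5 ktn1 replicate 2 and EN7 WT replicate 1 together, chosen after seeing the data, 1 library was left in each of those groups. The log2 differences are therefore given here without a test. miR827 was then -1.38 in ACL5 (reversed), 3.67 in EN7, -5.04 for the interaction and -4.48 between layers in ktn1. For ktn1 over both layers it was 1.14. The miR399 sum was -0.68 in ACL5, and its layer differences were -3.26 in WT, -2.62 in ktn1 and -2.95 over both genotypes. Both libraries left out lie toward the other layer, so this setting tends to widen layer differences.

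Rescaling reversed small differences. In seedlings miR827 became 0.15, 0.16 and 0.10 with equal miRNA sums, equal sums without miR165 and miR166, and an equal median. The miR399 sum became -0.24 and -0.44 in ACL5 with the 2 equal sums, 0.51 in EN7 with an equal median, and -0.21 and -0.065 for the interaction with equal sums without miR165 and miR166 and with an equal median. The layer difference of the miR399 sum over both genotypes missed the threshold at a pseudocount of 0.1 (-2.05), without a filter (-2.05) and with equal miRNA sums (-1.49). The cause was not tested.

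With the replicate number as a block, no call of a member changed: miR827 kept 0.82, 5.12, -4.30, 2.02, -2.28, -0.083 and 2.97, with an adjusted p of 0.0541 in EN7, and the miR399 sum kept 0.0077, -0.20, 0.21, -2.15, -1.94, 0.25 and -2.05. Deviations of libraries with equal numbers correlated at -0.48 in ACL5, 0.42 in EN7, -0.17 in WT, 0.013 in ktn1 and 0.18 in seedlings, so the numbers were not taken to pair libraries. A crossed pairing gave 4 calls in ACL5 and 3 between layers in WT, as the fits without a block did.

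The number of miRNAs called ranged over the alternatives from 1 to 9 in ACL5 (4 in the fit reported), 5 to 19 in EN7 (6), 0 to 6 for the interaction (2), 0 to 18 between layers in WT (3), 2 to 36 in ktn1 (14), 4 to 26 for ktn1 over both layers (9), 6 to 46 for layers over both genotypes (22) and 0 to 10 in seedlings (1). The counts of 0 came from limma, with 8 and 17 entries at an unadjusted p under 0.05 without the trend for the interaction and the WT layers, and 3 to 11 in seedlings. Between layers in ktn1, equal miRNA sums gave 30 higher and 3 lower calls, beside 11 higher and 3 lower as reported, as the median of all entries moved to 1.67. The planned count-based alternatives were not run.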
